A study of Mus musculus with 6 samples.

Results

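The nuclear genes of respiratory complex III and of ATP synthase were compared between control mouse hearts and hearts with a cardiomyocyte deletion of Mrps5, the gene of a protein of the small mitochondrial ribosomal subunit. Members were the protein-coding genes whose symbol begins with Uqcr, Uqcc, Atp5 or Atpaf or is Cyc1, Cycs, Bcs1l or Atpif1, which gave 35 of the 54532 genes in the table. They comprised 9 complex III subunit genes, 4 complex III assembly factor genes, the cytochrome c gene Cycs, 17 ATP synthase subunit entries and 4 genes of ATP synthase assembly or inhibition. Of these, 34 passed the filter of a mean of at least 0.5 FPKM (fragments per kilobase of gene, as deposited). The deposited scale divides by a size per library that was not its read total. The remaining entry was a second Atp5o record, a read-through model with 0 reads in each of the 6 hearts. Of its 530 exonic bases, 287 are shared with Donson and 243 with the main Atp5o record, on the same strand. How shared reads were assigned was not tested, so 0 reads is not a measured level.

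Both groups carried loxP-flanked alleles of Mrps5 (Mrps5 fl/fl) and received tamoxifen by intraperitoneal injection at 8 weeks of age, 45 mg/kg/day for 5 days. The 3 cKO mice carried in addition MCM, a transgene for a tamoxifen-inducible Cre driven by the alpha-myosin heavy chain promoter, and the 3 control mice (Ctrl) did not, so that effects of the Cre transgene and of the deletion cannot be told apart. Heart tissue was labelled as taken 12 weeks after tamoxifen, whereas the methods give the age of the mice as 12 weeks and name ventricular tissue. The study's reporting summary states that only males were used.

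Complex III takes electrons from ubiquinol, passes them through cytochrome b, the Rieske iron-sulfur protein and cytochrome c1 to the mobile carrier cytochrome c, and moves protons across the inner mitochondrial membrane. ATP synthase lets the protons return through a membrane part, Fo, whose ring of c subunits turns the central stalk inside the catalytic head, F1, while a peripheral stalk holds the head still. Mitochondrial DNA encodes cytochrome b of complex III and subunits a and 8 of ATP synthase, which the mitochondrial ribosome translates, and nuclear DNA encodes the rest. Cardiomyocytes are packed with mitochondria and make most of their ATP in this way.

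The libraries held 15989322 to 24875499 reads assigned to genes, worked back from the values, and the member with the fewest reads in a heart, Atp5s, had 317 there. Mrps5 itself was at 5.20, 6.45 and 6.33 FPKM in Ctrl, compared with 1.12, 1.23 and 1.31 FPKM in cKO (log2 fold change -1.65, limma adjusted p 0.000202). The summed level of 10 cardiomyocyte markers was 24517 to 30229 FPKM in Ctrl and 14669 to 22514 FPKM in cKO hearts, and 7 of the 10 were lower past the threshold (median log2 fold change -0.62). Of 6 endothelial markers, 3 were lower, with sums of 125 to 143 FPKM in Ctrl and 82.8 to 101 FPKM in cKO. Sums overlapped between groups for 7 fibroblast markers (159 to 186 and 157 to 187 FPKM, 1 lower and 2 higher), 6 macrophage markers (104 to 148 and 85.4 to 124 FPKM, 1 lower), smooth muscle markers (16.0 to 29.2 and 28.1 to 54.1 FPKM, 1 of 3 tested higher), 3 blood markers (727 to 1767 and 490.5 to 1311 FPKM, none called) and 5 atrial markers (128 to 2054 and 575 to 1675 FPKM, none called). No marker in the cardiomyocyte list was near 0, and the atrial gene Bmp10 was at 0 in Ctrl replicate 3. In replicates 1, 2 and 3 the atrial sums were 2054, 290 and 128 FPKM in Ctrl and 575, 1348 and 1675 FPKM in cKO. The level of atrial markers thus differed widely between hearts of the same group, and its part in the results was not tested. The 4 Y-linked genes examined were at 0 in cKO replicate 2 alone, where Xist was at 10.7 FPKM, against at most 0.127 FPKM in the other hearts. This heart thus reads as female, although the reporting summary states only males, and sex was not balanced between the groups. Counts are also given without this heart. The part of cell composition in the results was not tested, and in bulk tissue fewer cardiomyocytes and less RNA per cardiomyocyte cannot be told apart.

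Most members were lower in cKO hearts, in both complexes and by a moderate amount. Of 34 tested, 22 fell, 1 rose (Bcs1l) and 11 did not pass an adjusted p of 0.05, where 17.0% of all 12944 genes tested were lower and 16.3% were higher. The log2 fold change was negative for 31 and positive for 3, with a median of -0.36 against -0.02 over all genes tested. Every cKO heart lay below every Ctrl heart for 26 members, and for 26.4% of all genes. The opposite separation held for Bcs1l, and for 24.8% of all genes. Without cKO replicate 2, 18 members were lower and 0 higher, and Atp5f1, Atp5s, Atpaf2, Bcs1l and Cyc1 lost their calls. Leaving out any 1 heart gave 12 to 20 lower members, with 12 without Ctrl replicate 2 and 12 without Ctrl replicate 3. Lower calls over all 12944 genes also went down, from 2205 to 1434 without Ctrl replicate 2 and 1450 without Ctrl replicate 3. Without cKO replicate 2 they numbered 2006. Scaling each library to its total without mtDNA-encoded genes moved the median of all genes to 0.05 and the split of all calls from 2205 lower and 2110 higher to 1620 lower and 2649 higher, and left 19 of the 23 member calls.

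**Figure D1:**
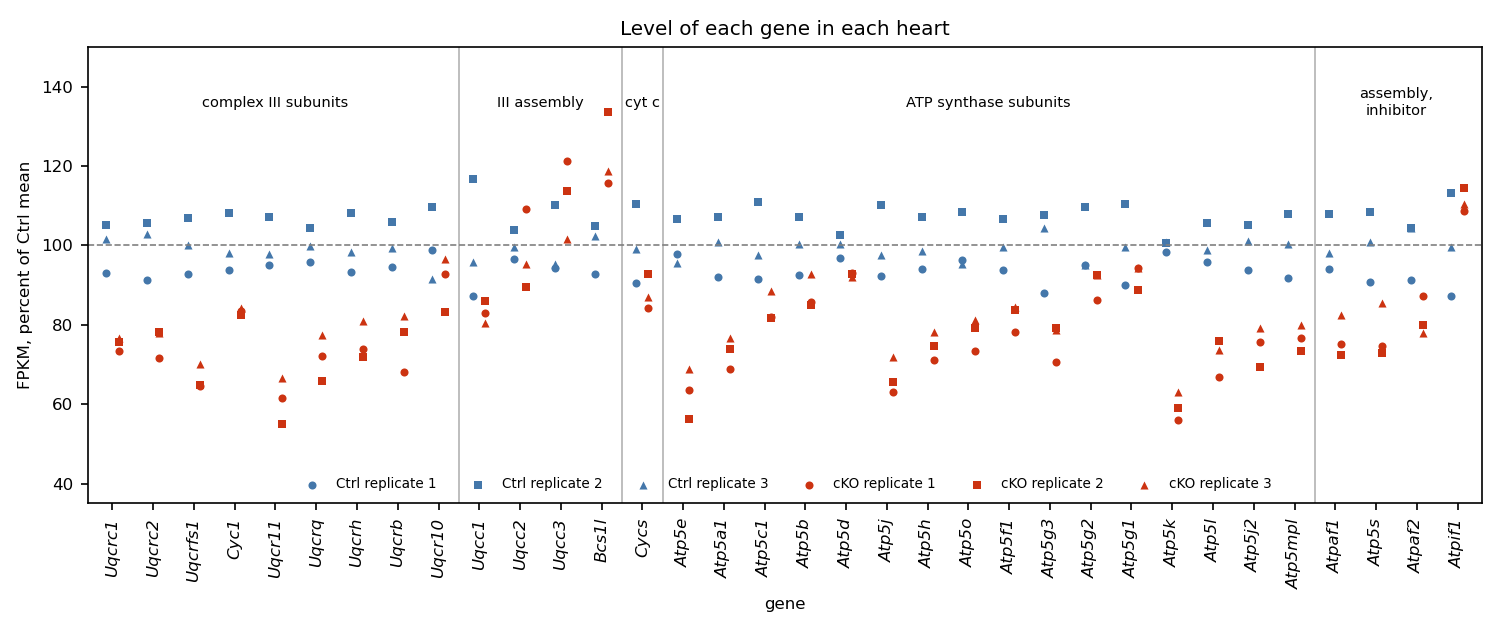
FPKM of the 34 tested genes in each heart as a percent of the gene's Ctrl mean, with Ctrl hearts in blue and cKO hearts in red and 1 symbol per replicate number. The median over the 9 complex III subunit genes was 72.0, 75.7 and 78.0% in cKO replicates 1, 2 and 3, and of the 4 assembly factor genes of complex III only Bcs1l has all 3 cKO hearts above its Ctrl hearts.

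Of the 9 complex III subunit genes, 8 fell, with log2 fold changes of -0.71 to -0.26, and only Uqcr10 did not pass. Their median was -0.40. Uqcr11 fell most. It encodes a small subunit bound near the Rieske protein, lies on chromosome 10 (80402997 to 80406830, minus strand, 3 exons) and was at 766, 865 and 788 FPKM in Ctrl hearts and 496, 443 and 537 FPKM in cKO hearts. The lowest Ctrl heart was thus well above the highest cKO heart, and 61.0% of the Ctrl level was left (log2 fold change -0.71, SE 0.10, adjusted p 0.00324). Uqcrfs1, the Rieske iron-sulfur protein that receives the electron from ubiquinol (chromosome 13, 30540308 to 30545362, minus strand, 2 exons), was at 608, 699.9 and 655 FPKM in Ctrl, compared with 422, 424 and 458 FPKM in cKO. The groups did not overlap, and 66.5% was left (log2 fold change -0.59, SE 0.087, adjusted p 0.00376).

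Uqcrq, a subunit in contact with cytochrome b, was at 436, 474 and 453 FPKM in Ctrl hearts and 327, 299 and 352 FPKM in cKO hearts (log2 fold change -0.48, adjusted p 0.00808). The genes of the core proteins, which form the large matrix domain, stood close together: Uqcrc1 was left at 75.2% and Uqcrc2 at 75.9% of Ctrl (log2 fold changes -0.41 and -0.39, adjusted p 0.00886 and 0.015). The hinge protein gene Uqcrh and Uqcrb, whose product sits beside cytochrome b, were left at 75.6% and 76.2%. The groups did not overlap for any of these 5 genes.

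Cyc1, the heme protein that hands the electron to cytochrome c, fell as well. It was at 381, 440.0 and 399 FPKM in Ctrl, compared with 339, 336 and 343 FPKM in cKO, so that the cKO hearts were nearly alike and all below the Ctrl hearts (log2 fold change -0.26, SE 0.082, adjusted p 0.0485). This was the lower call nearest the threshold, and it was lost in 11 of 14 alternatives. Uqcr10, another small accessory subunit, was at 606, 673 and 562 FPKM in Ctrl hearts and 570, 510.2 and 593 FPKM in cKO hearts. These ranges overlapped (log2 fold change -0.14, 95% interval -0.38 to 0.10, adjusted p 0.336).

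Of the 4 assembly factor genes of complex III, 0 fell and 1 rose. Bcs1l encodes the AAA ATPase that moves the folded Rieske protein into the complex (chromosome 1, 74588289 to 74592443, plus strand, 8 exons). It was at 11.2, 12.7 and 12.4 FPKM in Ctrl, compared with 14.0, 16.2 and 14.4 FPKM in cKO. Each cKO heart was above each Ctrl heart, at 123% of Ctrl on average (0.27 on the log2 scale, SE 0.084, adjusted p 0.045), and the call was lost in 8 of 14 alternatives. Uqcc1, Uqcc2 and Uqcc3 act in the making of cytochrome b, and none passed. Uqcc1 was at 23.4, 31.3 and 25.7 FPKM in Ctrl hearts and 22.2, 23.1 and 21.6 FPKM in cKO hearts, without overlap (log2 fold change -0.25, adjusted p 0.132). Uqcc2 was at 119, 128 and 123 FPKM in Ctrl, compared with 135, 111 and 118 FPKM in cKO (log2 fold change -0.03, 95% interval -0.25 to 0.19). Uqcc3 was at 38.0, 44.4 and 38.4 FPKM in Ctrl hearts and 48.9, 45.8 and 40.9 FPKM in cKO hearts (log2 fold change 0.16, adjusted p 0.243). For both Uqcc2 and Uqcc3 the groups overlapped.

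Cytochrome c itself did not pass the threshold. Cycs was at 209, 255 and 229 FPKM in Ctrl, compared with 195, 214 and 201 FPKM in cKO, with cKO replicate 2 inside the Ctrl range (log2 fold change -0.18, 95% interval -0.41 to 0.05, adjusted p 0.187).

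**Figure D2:**
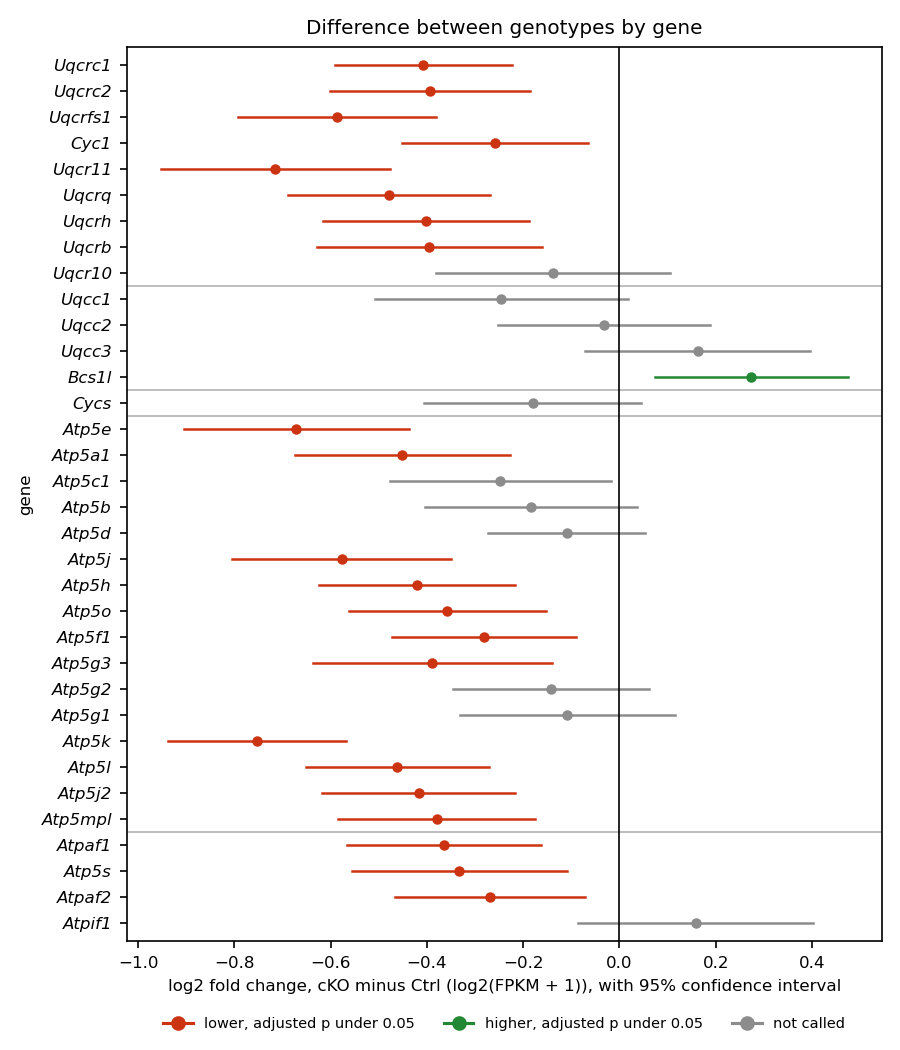
Log2 fold change of each tested gene (cKO minus Ctrl, on log2(FPKM + 1)) with its 95% confidence interval from limma, in red where lower and in green where higher at an adjusted p under 0.05. Values run from -0.75 for Atp5k to 0.27 for Bcs1l, and grey genes did not pass.

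Of 16 tested ATP synthase subunit genes, 11 fell and 0 rose, with a median log2 fold change of -0.38. All 4 peripheral stalk genes and all 4 other Fo genes fell, while 2 of 5 F1 genes and 1 of 3 subunit c genes did. The medians were -0.39 for the stalk, -0.44 for other Fo subunits, -0.25 for F1 and -0.14 for subunit c. Differences between these parts were not tested.

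In F1, Atp5a1 and Atp5b encode the alpha and beta subunits, which alternate in the catalytic head. Atp5a1 (chromosome 18, 77773729 to 77782869, plus strand, 12 exons) was at 1339.6, 1559 and 1471 FPKM in Ctrl hearts and 1002, 1075 and 1116 FPKM in cKO hearts, without overlap (log2 fold change -0.45, SE 0.095, adjusted p 0.0123). Atp5b was at 1463, 1691 and 1584 FPKM in Ctrl, compared with 1356, 1343 and 1467 FPKM in cKO. Here the highest cKO heart lay just above the lowest Ctrl heart (log2 fold change -0.18, 95% interval -0.40 to 0.04, adjusted p 0.168). The 95% intervals of the pair overlapped, and their difference was not tested.

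The central stalk genes of F1 ranged from -0.67 to -0.11 on the log2 scale. Atp5e, the epsilon subunit at the foot of the central stalk (chromosome 2, 174461072 to 174464105, minus strand, 3 exons), was at 329, 359 and 321 FPKM in Ctrl hearts and 213, 189 and 231 FPKM in cKO hearts. Its groups stood far apart, with 62.8% left (log2 fold change -0.67, SE 0.099, adjusted p 0.00367). The gamma subunit gene Atp5c1, the rotating shaft, was at 536, 649.7 and 572 FPKM in Ctrl, compared with 479.9, 479 and 518 FPKM in cKO. No values overlapped, yet it was the gene nearest the threshold from outside (log2 fold change -0.25, adjusted p 0.0909). The delta subunit gene Atp5d was the steadiest member among cKO hearts, at 274, 273 and 271 FPKM, against 286, 302 and 296 FPKM in Ctrl (log2 fold change -0.11, adjusted p 0.256).

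The peripheral stalk, which keeps the head from turning with the rotor, was lower in all 4 tested genes, with each cKO heart below each Ctrl heart. Atp5j, coupling factor 6 (chromosome 16, 84827866 to 84835625, minus strand, 5 exons), was at 223, 267 and 237 FPKM in Ctrl hearts and 153, 159 and 174 FPKM in cKO hearts (66.8% left, log2 fold change -0.58, adjusted p 0.0057). Atp5h, subunit d, was at 586, 668 and 615 FPKM in Ctrl, compared with 443, 465 and 487 FPKM in cKO (log2 fold change -0.42, adjusted p 0.0112). Atp5o, which encodes OSCP, the link between stalk and head, was at 261, 294 and 258 FPKM in Ctrl hearts and 199, 215 and 219.9 FPKM in cKO hearts (log2 fold change -0.36, adjusted p 0.0199). The gene of subunit b, Atp5f1, fell too (log2 fold change -0.28, adjusted p 0.0362), a call lost in 9 of 14 alternatives. Atp5f1 shares 337 exonic bases with Wdr77 on the opposite strand and Atp5j shares 397 with Gabpa, and the library kit does not mark strand. Wdr77, at 4.50 FPKM on average, rose while Atp5f1 fell, and Gabpa, at 8.35 FPKM on average, fell (log2 fold changes 0.85 and -0.27, adjusted p 0.0026 and 0.0422).

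The small membrane subunits of Fo included the member with the largest log2 fold change. Atp5k encodes subunit e, which joins ATP synthase monomers into the dimers that bend the cristae (chromosome 5, 108433244 to 108434448, minus strand, 4 exons). It was at 564, 577 and 578 FPKM in Ctrl, compared with 321, 338 and 361 FPKM in cKO. The Ctrl hearts were nearly identical, with a coefficient of variation of 1.37%, the lowest of the members, and 59.3% was left in cKO (log2 fold change -0.75, SE 0.078, adjusted p 0.00148). Atp5l, subunit g, the partner of subunit e in the dimer, was at 57.3, 63.1 and 59.1 FPKM in Ctrl hearts and 40.0, 45.5 and 44.1 FPKM in cKO hearts (log2 fold change -0.46, adjusted p 0.00644). Atp5j2, subunit f, was at 171, 192 and 185 FPKM in Ctrl, compared with 138, 127 and 145 FPKM in cKO (log2 fold change -0.42, adjusted p 0.011). Atp5mpl, a small proteolipid of the membrane part, was left at 76.6% (log2 fold change -0.38, adjusted p 0.0164). Usmg5, the gene of another small Fo subunit, DAPIT, does not carry a name that the selection took in. It was at 1679, 1960.3 and 1766 FPKM in Ctrl hearts and 1134, 1215 and 1294 FPKM in cKO hearts (log2 fold change -0.57, adjusted p 0.00651).

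Subunit c is encoded by 3 nuclear genes with different import sequences and the same mature protein. The last 225 coding bases of each, which hold the mature part, are shown because, within this stretch, reads can be told apart only where the sequences differ. They were read from GENCODE mouse release 21 on GRCm38, 5′ to 3′ without the stop codon, and capitals mark bases that differ from Atp5g3. All 3 genes lie on the minus strand, and the stretches span chr11:96073107-96073635 for Atp5g1, chr15:102663017-102665166 for Atp5g2 and chr2:73908596-73909296 for Atp5g3, introns included.
Atp5g1: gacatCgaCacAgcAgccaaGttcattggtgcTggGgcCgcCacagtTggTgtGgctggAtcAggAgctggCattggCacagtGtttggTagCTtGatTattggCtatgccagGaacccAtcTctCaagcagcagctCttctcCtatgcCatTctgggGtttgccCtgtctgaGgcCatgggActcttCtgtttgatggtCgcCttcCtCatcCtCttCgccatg
Atp5g2: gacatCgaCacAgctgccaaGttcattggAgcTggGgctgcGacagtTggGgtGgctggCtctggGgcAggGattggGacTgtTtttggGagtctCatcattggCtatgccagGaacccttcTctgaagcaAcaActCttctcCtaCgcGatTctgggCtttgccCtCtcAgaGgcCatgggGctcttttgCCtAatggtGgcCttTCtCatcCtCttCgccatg
Atp5g3: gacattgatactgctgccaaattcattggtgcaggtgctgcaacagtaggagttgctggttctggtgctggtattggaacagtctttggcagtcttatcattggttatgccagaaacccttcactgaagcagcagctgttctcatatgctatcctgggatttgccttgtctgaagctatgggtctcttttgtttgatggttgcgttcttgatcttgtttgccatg
Atp5g1 differed from Atp5g3 at 45 of the 225 bases, 41 of them at the third base of a codon, and Atp5g2 differed at 48, 44 of them at the third base. Atp5g1 and Atp5g2 were 84.9% identical over this stretch, Atp5g1 and Atp5g3 80.0%, and Atp5g2 and Atp5g3 78.7%. The longest exact run shared by the whole mRNAs was 21 bases for Atp5g1 and Atp5g2, 11 for Atp5g1 and Atp5g3 and 9 for Atp5g2 and Atp5g3.

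Only Atp5g3 among these genes fell. Atp5g3 (chromosome 2, 73908447 to 73911326, minus strand, 5 exons) was at 512, 628 and 607 FPKM in Ctrl, compared with 412, 461 and 458 FPKM in cKO, without overlap (log2 fold change -0.39, SE 0.11, adjusted p 0.0293). The call was lost in 5 of 14 alternatives, which were those without the filter (adjusted p 0.0828), without Ctrl replicate 2 (0.0880) or 3 (0.0972) and without cKO replicate 1 (0.0849) or 3 (0.0611). Differences in fold change between the 3 genes were not tested. Atp5g2 (chromosome 15, 102662864 to 102672352, minus strand) was at 132, 153 and 132 FPKM in Ctrl hearts and 119.8, 129 and 128 FPKM in cKO hearts, a narrow gap without overlap (log2 fold change -0.14, 95% interval -0.35 to 0.06, adjusted p 0.242). Atp5g1 (chromosome 11, 96068852 to 96075670, minus strand) was at 209.8, 258 and 233 FPKM in Ctrl, compared with 220.1, 207 and 220.2 FPKM in cKO, with overlap (log2 fold change -0.11, 95% interval -0.33 to 0.12, adjusted p 0.415).

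As a share of the FPKM of the 3 genes, Atp5g3 gave 60.0, 60.5 and 62.5% in Ctrl and 54.8, 57.9 and 56.8% in cKO hearts. The difference was -4.50 percentage points, and every cKO heart was below every Ctrl heart (exact permutation test, two-sided, p 0.1, the smallest that 3 against 3 hearts can give). Atp5g1 made up 24.4% ± 0.458 in Ctrl and 27.5% ± 1.66 in cKO hearts (SD, n = 3 each; exact permutation p 0.1), and Atp5g2 14.6% ± 0.947 and 16.0% ± 0.120 (exact permutation p 0.1). Which gene leads depended on the gene length. With the shortest principal transcripts, 596 bases for Atp5g1 in place of the deposited 4912, Atp5g1 gave 45.5% in Ctrl and 49.3% in cKO hearts and Atp5g3 gave 42.0% and 37.5%. The direction of all 3 differences stayed the same under each length tried, but the Atp5g2 shares overlapped between groups for the shortest transcripts and for reads not divided by length.

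**Figure D3:**
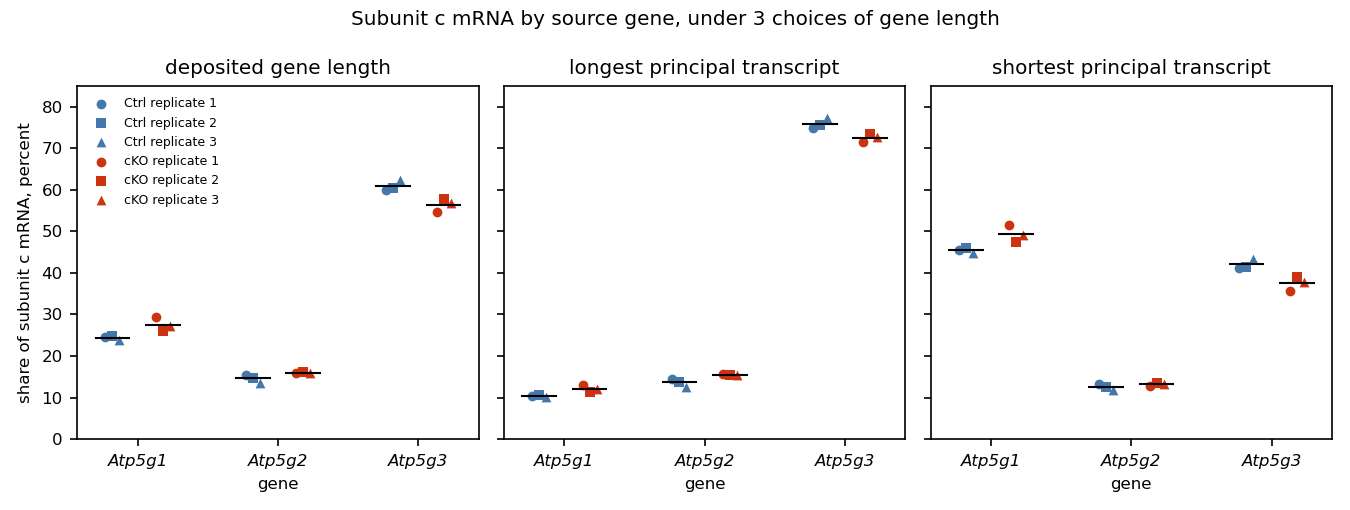
Share of subunit c mRNA from each of its 3 genes in each heart (points) and the group means (bars), for 3 choices of gene length. With the deposited lengths the Atp5g3 share is 61.0% in Ctrl and 56.5% in cKO, and its cKO hearts lie below its Ctrl hearts in all 3 panels.

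Of the 4 genes that assemble or restrain ATP synthase, 3 fell and 1 did not pass. Atpaf1, the chaperone of the beta subunit, was at 20.96, 24.1 and 21.8 FPKM in Ctrl hearts and 16.7, 16.1 and 18.4 FPKM in cKO hearts (log2 fold change -0.36, adjusted p 0.0176). Atpaf2, the chaperone of the alpha subunit, was at 13.0, 14.8 and 14.9 FPKM in Ctrl, compared with 12.4, 11.4 and 11.1 FPKM in cKO (log2 fold change -0.27, adjusted p 0.0458). Atp5s, known as factor B, was at 11.2, 13.3 and 12.4 FPKM in Ctrl hearts and 9.18, 8.99 and 10.5 FPKM in cKO hearts (log2 fold change -0.33, adjusted p 0.0342). None of these overlapped between groups, although Atpaf2 lost its call in 9 and Atp5s in 7 of 14 alternatives. Atpif1, the inhibitor that stops the enzyme from running backwards and burning ATP, had values of 53.6, 69.5 and 61.2 FPKM in Ctrl and 66.7, 70.4 and 67.9 FPKM in cKO hearts. Ctrl replicate 2 lay within the cKO range (log2 fold change 0.16, 95% interval -0.09 to 0.40, adjusted p 0.274).

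Of the 3 mtDNA-encoded partners of these subunits, 2 fell. Cytochrome b mRNA, mt-Cytb, was at 30858, 35565 and 29322 FPKM in Ctrl, compared with 24675, 15639 and 22243 FPKM in cKO. The lowest value was that of cKO replicate 2 (log2 fold change -0.64, SE 0.19, adjusted p 0.0417), and the call was lost in 8 of 14 alternatives, among them the one without that heart (log2 fold change -0.44, adjusted p 0.0701). Subunit a, mt-Atp6, was at 4387, 4037 and 3815 FPKM in Ctrl hearts and 2016, 2338 and 2860.2 FPKM in cKO hearts (log2 fold change -0.77, SE 0.14, adjusted p 0.00808). The reading frame of subunit 8, mt-Atp8, overlaps that of mt-Atp6 on one transcript. It was at 348, 214 and 163 FPKM in Ctrl, compared with 271, 217 and 142 FPKM in cKO, ranges that overlap widely (log2 fold change -0.18, adjusted p 0.709). Its Ctrl mean was 241 FPKM against 4080 FPKM for mt-Atp6, although both lie on one transcript. How reads in the overlap were assigned was not tested, so the mt-Atp8 value may not follow the level of that transcript.

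Within a heart, the mean FPKM of the mtDNA-encoded subunits was divided by that of the nuclear-encoded subunits of the same complex. For complex III this ratio was 66.0, 67.3 and 60.4 in Ctrl and 68.8, 44.5 and 57.4 in cKO hearts. The cKO hearts lay on both sides of the Ctrl range, with a mean of 0.881 times that of Ctrl, or 0.977 times without cKO replicate 2. For ATP synthase the ratio was 5.33, 4.16 and 4.18 in Ctrl and 3.19, 3.48 and 3.86 in cKO hearts, each below each Ctrl heart. Its mean in cKO was 0.770 times that of Ctrl, or 0.773 times without cKO replicate 2. With mt-Atp6 alone the means were 8.60 in Ctrl and 6.45 in cKO hearts.

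**Figure D4:**
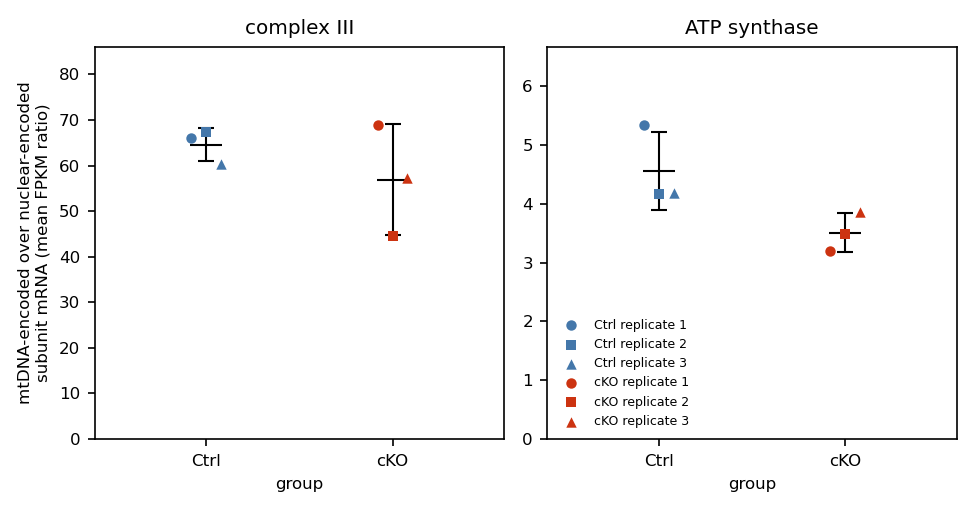
Ratio of the mean FPKM of mtDNA-encoded to nuclear-encoded subunit genes in each heart (points), with group mean and SD (bars, n = 3 each), for complex III and ATP synthase. The complex III ratios overlap between groups (means 64.6 and 56.9), and the ATP synthase ratios do not (4.56 and 3.51).

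A list of 12 other genes drawn up around these complexes, of which 10 could be tested, gave 3 lower and 1 higher call. Dmac2 was in this list, although its product is not a part or an assembly factor of either complex. Ttc19, which clears fragments of the Rieske protein, was at 12.4 ± 1.06 FPKM in Ctrl and fell to 8.71 ± 0.569 FPKM (-0.46 on the log2 scale, adjusted p 0.00868). Slc25a3, the mitochondrial phosphate carrier that feeds ATP synthase, fell as well, with 281 ± 25.8 FPKM in Ctrl and 215 ± 13.7 FPKM in cKO (-0.38 on the log2 scale, adjusted p 0.0239). This call was lost in 5 of 14 alternatives, with adjusted p of 0.0554 without the filter, 0.0762 and 0.0838 without Ctrl replicates 2 and 3, and 0.0685 and 0.0560 without cKO replicates 1 and 3. The adenine nucleotide carriers, which export its ATP, moved in opposite directions. Slc25a4, the heart and muscle form, was at 2083, 2494 and 2376 FPKM in Ctrl hearts and 1428, 1562 and 1500.2 FPKM in cKO hearts (log2 fold change -0.63, adjusted p 0.00493). Slc25a5, the more widely expressed form, was at 171, 194 and 198 FPKM in Ctrl, compared with 378, 393 and 353 FPKM in cKO, 199.6% of Ctrl on average (log2 fold change 0.99, adjusted p 0.00101). The other 6 tested, Lyrm7, Tmem70, Tmem242, Dmac2, Higd1a and Ppif, did not pass, with log2 fold changes of -0.29 to 0.24. Of these, Lyrm7 passed with scaling without mtDNA-encoded genes (log2 fold change 0.32, adjusted p 0.0424), Dmac2 without cKO replicate 2 (-0.34, adjusted p 0.0350) and Tmem70 without cKO replicate 3 (-0.30, adjusted p 0.0475).

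Across the 34 members the Ctrl hearts kept nearly the same order, and the cKO hearts did not. Ctrl replicate 2 was the highest Ctrl heart for 32 members and Ctrl replicate 1 the lowest for 30, while over all genes tested these hearts held those places for 35.7% and 36.2%. In cKO, replicate 3 was the highest for 22 members, against 28.0% of all genes, and the lowest place was held by replicate 1 for 16 members, replicate 2 for 14 and replicate 3 for 4. The summed cardiomyocyte markers were also highest in Ctrl replicate 2 among Ctrl hearts, but in cKO they were highest in replicate 2 (22514 FPKM) and not in replicate 3 (17566 FPKM). Members are thus not independent of each other, and their count is not a count of replicates. Coefficients of variation lay between 1.37 and 15.2% in Ctrl and between 0.523 and 10.3% in cKO.

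The members' shares of all FPKM were lower in each cKO heart. Complex III members took 0.944, 0.988 and 1.00% of all FPKM in Ctrl and 0.824, 0.841 and 0.885% in cKO hearts. ATP synthase members took 1.55, 1.65 and 1.70% in Ctrl and 1.40, 1.498 and 1.52% in cKO hearts. The mean differences were -0.129 and -0.159 percentage points, and -0.330 and -0.464 with the total taken without mtDNA-encoded genes. Levels between genes depend on the length used. The deposited length is the union of all annotated exons, which for Atp5l is 6443 bases against 544 in its principal transcript. Per kilobase of principal transcript, Atp5b, Atp5a1 and Atp5g3 led in Ctrl (3492, 1848 and 1779 on the FPKM scale) and Atp5l was at 709 in place of 59.8. A fixed length per gene changes a fold change only through the pseudocount.

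Other nuclear-encoded subunits of oxidative phosphorylation were counted in the same way, with Ndufa4 counted as a complex IV subunit and the genes Ndufa4l2 and Cox7a2l left out, a choice made after their values were seen. For complex I, 28 of 36 genes fell and 0 rose (median log2 fold change -0.43), and for complex II all 4 fell (-0.42). In complex IV, 9 of 16 tested fell and 2 rose (-0.37), with values from -1.31 to 1.18. Grouped by gene name alone, 30 of 38 fell in complex I (-0.44) and 8 of 16 in complex IV (-0.27). Complex III subunits ran from -0.71 to -0.14 and ATP synthase subunits from -0.75 to -0.11. Differences between complexes were not tested.

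**Figure D5:**
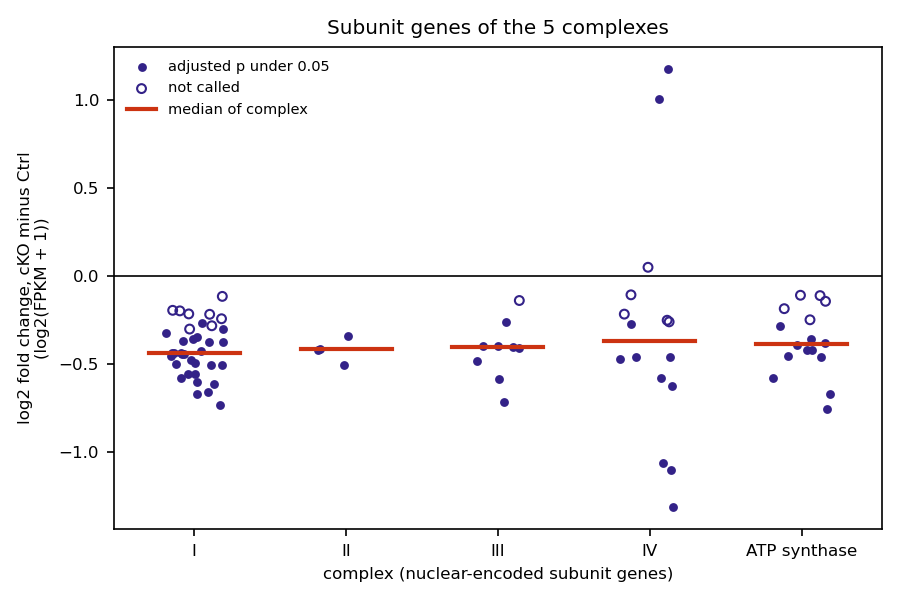
Log2 fold change (cKO minus Ctrl, log2(FPKM + 1)) of nuclear-encoded subunit genes of complexes I to IV and ATP synthase, filled where the adjusted p was under 0.05, with the median of each complex as a red line. Complex III and ATP synthase have medians of -0.40 and -0.38 and no gene above 0, and complex IV holds values on both sides.

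Promoter sequences were examined because so many members moved together. RefSeq windows on GRCm38.p6, from 250 bases before to 50 bases after a start site, were matched for 27 of the 34 members, 15 of them lower in cKO. Windows were searched on both strands for 6 short motifs, and shares were compared with 27025 genes that have a window. These genes were not limited to those expressed in the heart, and no share among the 12944 genes tested was computed. Whether a higher share is particular to these complexes was thus not tested. The core motif of nuclear respiratory factor NRF1, GCGCATGCG, stood in 6 members (22.2%, and 1.95% of all genes): Uqcrc1, Uqcr11, Cycs, Atp5g2, Atp5k and Atp5l. The ETS motif CCGGAAGT, read by GABPA among others, stood in 4 (14.8% and 4.31%), the YY1 motif AAGATGGC in 5 (18.5% and 3.19%) and the half-site CAAGGTCA of estrogen-related receptors in 3 (11.1% and 1.76%). The CREB motif TGACGTCA was present in 2 (7.41% and 2.03%) and the E-box CACGTG in 7 (25.9% and 8.09%). Of the 6 members with the NRF1 core, 4 were lower in cKO, and of the 7 with the E-box, 4 were. For the YY1 motif 4 of 5 were lower and for ETS 3 of 4. For the estrogen-related receptor half-site 2 of 3 were lower and for CREB 1 of 2, beside 15 of the 27 matched members. The members without a window, Atp5a1, Atp5mpl, Atp5s, Cyc1, Uqcrb, Uqcrc2 and Uqcrq, were all lower. Some windows hold more than 1 motif, and the NRF1 core can match on both strands at neighbouring positions. A match is a run of letters and not a measured binding site.

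The 100 bases before the start site are shown for the 2 members that fell most, for the Rieske gene, for the gene of the protein that inserts it, which rose, and for the complex III subunit gene that did not pass. Each is written 5′ to 3′ along the gene, with motif matches in capitals.
Atp5k, chr5:108434400-108434499, minus strand: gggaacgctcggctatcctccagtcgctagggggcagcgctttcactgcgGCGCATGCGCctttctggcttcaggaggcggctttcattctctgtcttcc
Uqcr11, chr10:80406822-80406921, minus strand: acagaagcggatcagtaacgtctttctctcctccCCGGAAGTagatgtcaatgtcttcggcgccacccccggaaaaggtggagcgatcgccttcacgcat
Uqcrfs1, chr13:30545317-30545416, minus strand: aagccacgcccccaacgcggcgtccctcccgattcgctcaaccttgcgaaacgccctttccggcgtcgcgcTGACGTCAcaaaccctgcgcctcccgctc
Bcs1l, chr1:74588189-74588288, plus strand: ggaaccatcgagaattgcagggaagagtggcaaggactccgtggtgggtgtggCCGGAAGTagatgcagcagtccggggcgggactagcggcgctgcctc
Uqcr10, chr11:4704345-4704444, minus strand: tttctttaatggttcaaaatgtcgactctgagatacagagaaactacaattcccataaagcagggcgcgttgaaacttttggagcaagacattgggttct
The capitals mark the NRF1 core in Atp5k, with overlapping matches on both strands, the ETS motif in Uqcr11 and in Bcs1l, and the CREB motif in Uqcrfs1. In Uqcr11 an NRF1 core also begins at position -5 and runs past the start site, outside the stretch shown. The Uqcr10 stretch holds none of the 6. The ETS motif stood at position -66 in a gene that fell and at -47 in the gene that rose.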

How the data were processed

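The authors made poly-A selected libraries, aligned reads with HISAT2 2.0.5 and counted them per gene with featureCounts 1.5.0-p3, per the labels' processing notes, and deposited FPKM values and a gene length for each gene; their own test used read counts. Those notes name mm9, but 53585 of the 54495 identifiers shared with GENCODE mouse release 21 have the same start and end, so coordinates correspond to GRCm38. FPKM times length was a whole number of reads within 0.01 for 100% of values. The implied library sizes were 0.913 to 0.980 times the read totals in Ctrl and 1.06 in cKO. On this scale cKO values lie lower against Ctrl than with scaling to read totals, which no fit used. The deposited scale gave a median log2 fold change of -0.02 over all genes tested.

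Values were tested as log2(FPKM + 1), which understates changes of low genes, with limma 3.58.1 in R 4.3.3 (lmFit, eBayes with trend, two-sided, no covariates), for genes that averaged 0.5 FPKM or more, adjusted by Benjamini-Hochberg over 12944 genes with a threshold of 0.05. The fit was tested on 5 simulated tables whose changed genes had larger fold changes than any member. It thus did not check calls at the members' size of change. Errors after ± are SD. p-values from limma set the difference between groups against the spread among 3 animals a group, moderated across all genes tested. No pair of libraries agreed within counting noise. Values per heart are given for the 3 members of each class with the lowest adjusted p, those near the threshold and those listed by role, with Usmg5, Gabpa and Wdr77 added after their values were seen; the members, lists and tests were chosen with earlier results of these data known. Alternatives were another pseudocount, other filters, scalings and variance models, voom on reads worked back, a replicate block and leaving out each heart; the subunit c shares with principal transcript lengths and mt-Atp6 alone were chosen after seeing the data. Sequences came from RefSeq and GENCODE, with no protein sequence used here.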

Additional observations from a re-analysis of the deposited data

How the results depend on the processing

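Of 23 member calls, 10 stood under all 14 alternatives: Uqcrc1, Uqcrfs1, Uqcr11, Uqcrq, Atp5e, Atp5j, Atp5h, Atp5k, Atp5l and Atp5j2. No alternative added a member call, and among the other genes reported Lyrm7, Dmac2 and Tmem70 each passed under 1. Lower members numbered 12 to 20 when 1 replicate was left out, 12 without Ctrl replicate 2 and 12 without Ctrl replicate 3, and the single higher call was lost in all 6 of these fits (0 higher), without the filter (0) and with the replicate block (0). Over all genes tested, the fits without 1 replicate gave 1434 to 2006 lower and 1400 to 1993 higher calls, against 2205 and 2110. Member calls in both directions were 15 without the filter, 19 with scaling without mtDNA-encoded genes and 21 with voom. Deviations from the group mean had correlations of -0.06, 0.17 and -0.01 between same-numbered hearts. The methods call the controls littermates, and the labels name no pairs. With 3 hearts a group, these correlations cannot settle whether hearts were paired. With the replicate number as a block 18 members were called, all lower, and Cyc1, Bcs1l, Atp5f1, Atp5s and Atpaf2 lost their calls. Scaling without mtDNA-encoded genes gave medians of -0.31 for complex III and -0.30 for ATP synthase subunits and differences in the share of FPKM of -0.330 and -0.464 percentage points, against -0.129 and -0.159. The subunit c share differences went to 1.68 for Atp5g1 with the longest principal transcripts, and for Atp5g2 to 0.593 with reads not divided by length and 0.707 with the shortest transcripts. The sign changed for uncalled genes near 0. Uqcc2 went to 0.056 and Ppif to 0.0051 with that scaling, and in the fits without 1 replicate Uqcc2 ran from -0.11 to 0.030 (positive without cKO replicate 2), Ppif from -0.16 to 0.0062 (positive without Ctrl replicate 2) and mt-Atp8 from -0.42 to 0.12 (positive without Ctrl replicate 1, and 0.079 without cKO replicate 3). Over 48 genes and 14 alternatives, 586 of 672 comparisons kept direction and side of the threshold. Fits without a heart had smaller groups, and the cause of the changed calls was not tested. Each tested member had at least 317 reads in a heart, and whether depth or the number of hearts limits the calls was not tested.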
